A study of Rattus norvegicus with 48 samples.

Results

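Rod phototransduction genes, the 9 genes Gnat1, Pde6a, Pde6b, Pde6g, Cnga1, Cngb1, Sag, Rcvrn and Grk1, were followed in the retina and the posterior eye of female Long-Evans rats. They were chosen by symbol, and all 9 were found among the 32883 gene rows of each tissue's count table and passed the low-count filter in both. The animals fell into 4 groups of 6. Aged OVX animals were 9 to 10 months old, which the submitters call middle-aged, and had undergone ovariectomy, which removes the ovaries. Aged sham animals of the same age had undergone a sham operation. Young OVX and young sham animals had the same surgeries and were 3 to 4 months old. Each of the 24 animals gave 1 retina library and 1 posterior eye library, so the values below come from 48 libraries. No transgene or other treatment is named in the labels, and the time between surgery and collection is not given in the sources used here. The labels' protocols state that tissue was held at room temperature before RNA was extracted.

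Phototransduction is the cascade by which a rod turns absorbed light into an electrical signal. Light activates the visual pigment, the pigment activates the G protein transducin, transducin releases the phosphodiesterase PDE6 from its inhibitory subunit, and PDE6 breaks down cyclic GMP. The fall in cyclic GMP closes a cation channel in the outer segment. A kinase and an arrestin then shut the pigment off, and a calcium-binding protein restrains the kinase. All of these proteins sit in the rod, the most abundant cell of the rat retina.

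Gnat1 encodes the alpha subunit of rod transducin. Pde6a and Pde6b encode the catalytic subunits of rod PDE6, and Pde6g its inhibitory gamma subunit. Cnga1 and Cngb1 encode the 2 subunits of the rod cyclic GMP-gated channel. Grk1 encodes the kinase that phosphorylates the activated pigment, Sag the arrestin that then binds it, and Rcvrn recoverin, the calcium sensor that restrains the kinase.

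The promoters of rod genes are known targets of CRX, a homeodomain factor of photoreceptors, and NRL, a leucine zipper factor of rods. The promoters are shown here for reference, and whether they bear on the posterior eye pattern described further on was not tested. RefSeq promoter sequences, 250 bases before to 50 bases after the start of transcription on the GRCr8 build, were matched for 5 of the 9 genes. Of those, 4 are printed, 5′ to 3′ on the gene's own strand, in lower case. Capitals mark TAATCC, the core letters of CRX sites, and TGCTGA, the half-site letters of NRL, each searched on both strands. TAATCC occurred in 7.168% and TGCTGA in 18.44% of 33469 rat promoters of the same length, and both together in 1.431%.
Cngb1, channel beta subunit, chr19:9732396-9732695, plus strand: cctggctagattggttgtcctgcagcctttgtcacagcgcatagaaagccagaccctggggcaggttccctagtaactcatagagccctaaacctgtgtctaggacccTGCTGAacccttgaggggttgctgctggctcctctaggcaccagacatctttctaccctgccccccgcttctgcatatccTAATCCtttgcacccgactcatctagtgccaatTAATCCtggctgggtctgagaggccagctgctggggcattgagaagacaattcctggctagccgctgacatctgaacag
Cnga1, channel alpha subunit, chr14:35920698-35920997, plus strand: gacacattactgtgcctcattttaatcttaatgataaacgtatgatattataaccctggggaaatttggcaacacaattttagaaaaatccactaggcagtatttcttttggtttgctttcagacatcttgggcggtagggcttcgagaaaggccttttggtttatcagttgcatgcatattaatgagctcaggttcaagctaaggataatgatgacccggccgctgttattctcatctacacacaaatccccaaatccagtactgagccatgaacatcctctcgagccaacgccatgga
Pde6b, PDE6 beta subunit, chr14:1511386-1511685, minus strand: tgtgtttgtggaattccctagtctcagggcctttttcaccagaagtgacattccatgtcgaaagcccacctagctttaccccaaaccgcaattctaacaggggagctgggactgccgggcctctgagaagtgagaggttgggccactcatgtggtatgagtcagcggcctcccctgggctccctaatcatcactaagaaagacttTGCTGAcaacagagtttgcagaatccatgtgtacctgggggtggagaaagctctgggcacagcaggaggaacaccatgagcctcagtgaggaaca
Sag, arrestin, chr9:95916947-95917246, plus strand: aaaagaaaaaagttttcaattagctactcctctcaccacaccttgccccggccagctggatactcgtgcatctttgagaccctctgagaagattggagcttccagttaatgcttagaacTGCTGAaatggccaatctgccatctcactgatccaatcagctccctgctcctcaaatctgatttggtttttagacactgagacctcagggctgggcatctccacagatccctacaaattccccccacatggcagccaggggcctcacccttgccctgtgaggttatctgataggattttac
The Cngb1 window held 2 TAATCC matches, at -62 and -29 from the start, and 1 TGCTGA match at -142. Pde6b held 1 TGCTGA at -45 and Sag 1 TGCTGA at -131. The window of Pde6a, matched but not printed, held 1 TAATCC at -67 and 0 TGCTGA. In the Cnga1 window neither set of letters was found. A match is a description of the letters, not evidence that a factor binds there.

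Depth was similar in the tissues, with 11470945 to 22971367 counts per posterior eye library and 12916146 to 30737547 per retina library. The 9 genes together took 0.00401% to 1.33% of the counts of a posterior eye library (median 0.221%) and 3.05% to 3.79% of those of a retina library (median 3.55%). Marker lists mostly went with the tissue labels. Of 10 pigment epithelium markers, 9 were called higher in posterior eye than in retina and 0 lower. All 10 scleral fibroblast markers were called higher and all 10 bipolar cell markers lower. Most genes were called in this comparison, with 8198 of 17152 higher and 7752 lower. Some lists were mixed: 9 ganglion cell markers were called lower and 1 higher, and 8 Müller glia markers lower and 2 higher. Of 8 endothelial markers 7 were called higher and 1 lower. Retina libraries also carried lens RNA: the summed level of 10 lens markers ran from 3281 to 57388 CPM between them. All levels below are CPM, a library's counts of a gene relative to its total after scaling for library composition, on the scale of each tissue's own fit unless stated otherwise. A change was called where its adjusted p was under 0.05.

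In the retina, ovariectomy was compared with sham surgery within each age to ask whether loss of the ovaries changed the cascade. None of the 9 genes was called at either age. Their estimated changes were small, between -0.06 and 0.08 on the log2 scale in aged animals and between -0.13 and 0.03 in young animals. The OVX and sham libraries overlapped for all 9 genes at both ages. Overlap was not counted over all genes tested, here or in the comparisons below, so it describes these 9 genes only.

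Gnat1, the transducin subunit, lay at 12496, 14332 and 15714 CPM (lowest, median and highest of 6 libraries) in young OVX retina, against 12931, 16231 and 16750.1 CPM in young sham retina. All 6 young OVX libraries were below the sham median, but the ranges overlapped, with the lowest sham value in animal 4. The means were 14291 ± 1274 CPM in young OVX and 15577 ± 1490 CPM in young sham (SD, n = 6 each), a log2 fold change of -0.12 ± 0.07 (SE; edgeR quasi-likelihood test, adjusted p = 0.493). In aged animals Gnat1 lay at 13837, 14978 and 16010.4 CPM in OVX retina, against 13136, 14934 and 16834 CPM in sham retina. The aged groups had nearly the same centre, at a log2 difference of 0.0018 ± 0.07 (edgeR, adjusted p = 0.998).

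The PDE6 subunits showed the same small spread. Pde6a, a catalytic subunit, lay at 823, 854 and 911 CPM in young OVX retina, against 796, 895 and 953 CPM in young sham retina. Pde6b, the other catalytic subunit, lay at 3214, 3286 and 3412 CPM in young OVX, against 3120.3, 3456 and 3672 CPM in young sham. Pde6g, the inhibitory subunit, lay at 4601, 4685 and 4949.7 CPM in young OVX, against 4210.3, 5104 and 5609 CPM in young sham. For Pde6b and Pde6g all 6 young OVX libraries were below the sham median and inside the sham range. Their log2 fold changes were -0.06 ± 0.04 for Pde6b and -0.08 ± 0.06 for Pde6g, neither of which was called (edgeR, adjusted p = 0.654 and 0.635). In aged animals Pde6a averaged 915 ± 52.5 CPM in OVX and 879.6 ± 51.0 CPM in sham (SD, n = 6 each). Pde6b averaged 3173 ± 187 CPM in aged OVX and 3291 ± 189 CPM in aged sham. Pde6g averaged 4860.5 ± 328 CPM in aged OVX and 5027 ± 318 CPM in aged sham. Each of these 3 differences was within 1 SD of either group.

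The channel subunits had tight levels. Cnga1 lay at 353, 385 and 403 CPM in young OVX retina, against 362, 395 and 419 CPM in young sham retina. Cngb1 lay at 1103, 1244 and 1354 CPM in young OVX, against 1121, 1256 and 1331 CPM in young sham. In aged animals Cnga1 averaged 393 ± 9.88 CPM in OVX and 391 ± 21.1 CPM in sham. For Cngb1 the aged means were 1189 ± 112 CPM in OVX and 1241 ± 76.5 CPM in sham (SD, n = 6 each). Log2 fold changes of the 2 genes over both ages ranged from -0.06 to 0.0068.

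Among the genes of shut-off and its control, Grk1 and Sag lay on opposite sides of 0 in young animals. Grk1, the pigment kinase, lay at 694, 747 and 819 CPM in young OVX retina, against 729, 822 and 909.7 CPM in young sham retina. All 6 young OVX libraries were below the sham median. Its log2 fold change was -0.13 ± 0.07 (edgeR, adjusted p = 0.499), the lowest of the 9, and the 95% interval ran from -0.27 to 0.02. Sag, the arrestin, lay at 6760.4, 6989 and 8069 CPM in young OVX, against 6398, 6708 and 8012 CPM in young sham. All 6 OVX values were above the sham median, and the log2 difference was 0.03 ± 0.06 (edgeR, adjusted p = 0.891). Rcvrn, recoverin, averaged 1705 ± 61.2 CPM in young OVX and 1701 ± 116 CPM in young sham (SD, n = 6 each), and the groups lay on top of each other. In aged animals Grk1 averaged 782 ± 97.9 CPM in OVX and 755 ± 32 CPM in sham, Sag 7239 ± 501 CPM in OVX and 6859 ± 435 CPM in sham, and Rcvrn 1684 ± 81.9 CPM in OVX and 1716 ± 58.7 CPM in sham. The aged Sag change of 0.08 ± 0.06 was the highest of the 9 at that age (adjusted p = 0.876).

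**Figure D1:**
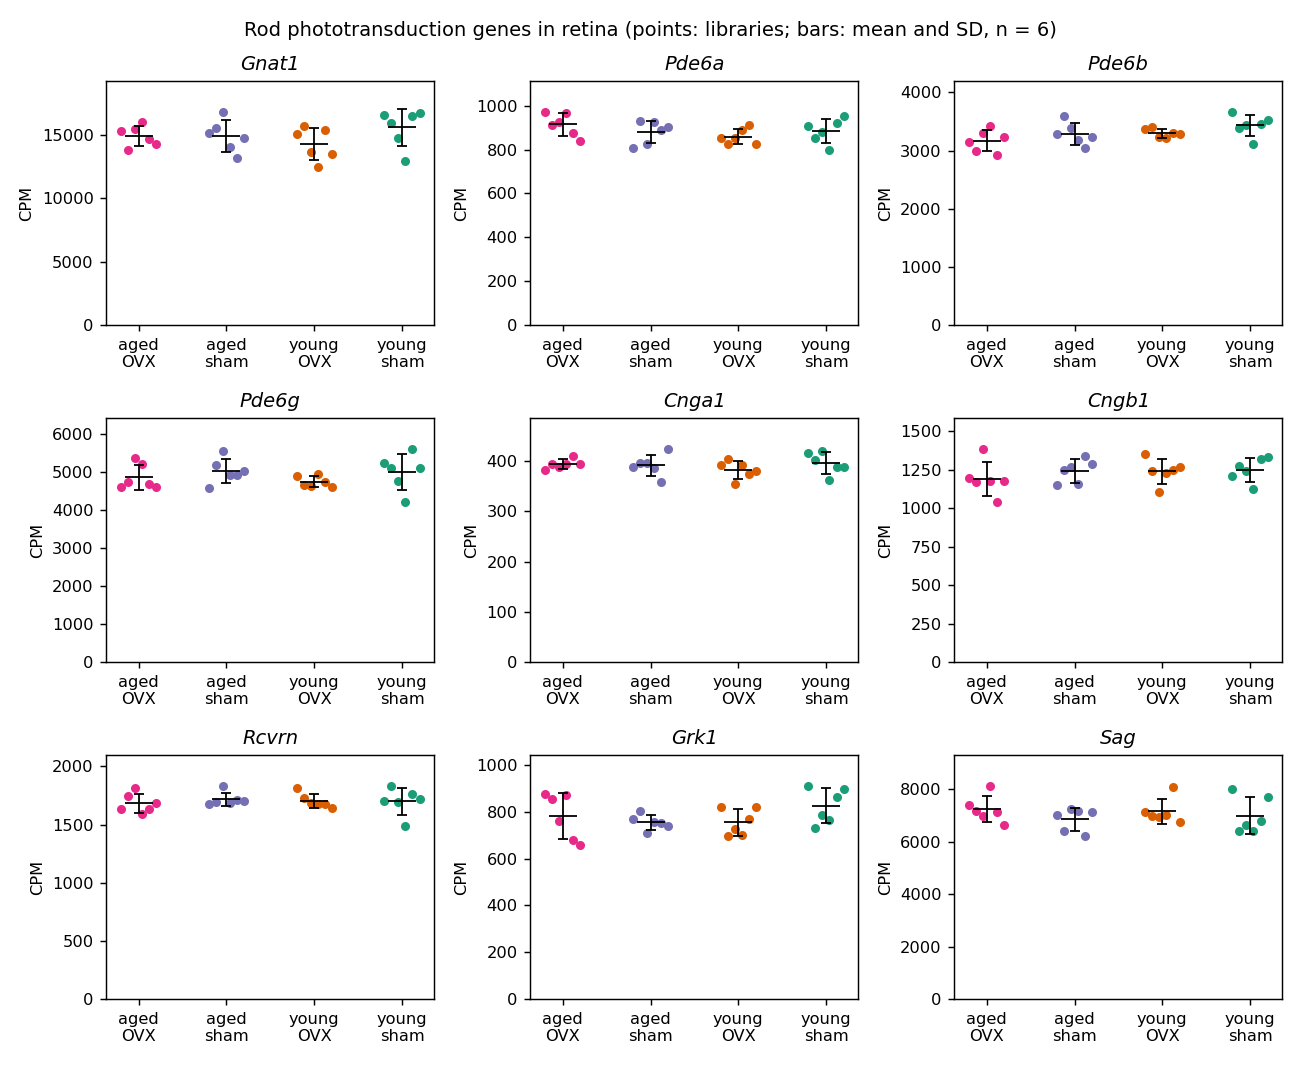
Retina levels of the 9 genes in CPM (vertical axes, from 0) for aged OVX, aged sham, young OVX and young sham animals. Points are libraries and bars the mean and SD of 6; every pair of groups overlaps, as with Gnat1 at 12496 to 15714 CPM in young OVX and 12931 to 16750.1 CPM in young sham.

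Over all genes the same retina tests called few with edgeR and more with DESeq2, which called 9 genes for OVX in aged animals, 62 in young animals and 51 over both ages. In aged animals 0 of the 9 genes were called, where 0.00646% of 15481 genes tested were called (1 gene, with 1001 at an unadjusted p under 0.05). In young animals 0 of 9 were called against 0.0194% of all genes (3 genes, with 1807 at an unadjusted p under 0.05). For the mean of both ages the counts were 0 of 9 and 0.0517% of all genes. When edgeR fitted 4 group means and no covariate, none of the 9 had an unadjusted p under 0.05 in any of the 6 retina comparisons. DESeq2 called none of them either. The members' median log2 fold change was 0.0018 in aged animals, with 4 of 9 below 0, and -0.05 in young animals, with 7 of 9 below 0. The median over all genes tested was -0.00055 in aged and -0.00072 in young animals.

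The intervals state what these retina data could have missed. Over the 9 genes the 95% intervals of the OVX effect ran at their widest from an 11.8% decrease to a 15.1% increase in aged animals. In young animals they ran from a 17.1% decrease to an 11.5% increase, and the intervals of all 9 genes held 0 at both ages. A p above the threshold does not show that the groups were equal. Pigment epithelium RNA was present in the same libraries. The summed level of its 10 markers, none at 0 in any library, was 243 to 310.3 CPM in aged OVX and 353 to 758 CPM in aged sham, and 323 to 512 CPM in young OVX and 258 to 425 CPM in young sham. The aged ranges did not overlap and the young ones did. Of the 10 markers edgeR called 0 for OVX at either age, and it called 3 as lower in the interaction and 2 as lower in aged OVX than in young OVX. With the mean log2 level of the markers as a covariate 0 of the 9 rod genes were called at either age, but the estimates moved. In aged animals they ran from -0.07 to 0.15, with SEs of 0.05 to 0.09, and 1 gene had an unadjusted p under 0.05 (edgeR). In young animals they ran from -0.17 to -0.0027, with SEs of 0.05 to 0.09 and 0 genes under 0.05. The intervals given above come from the fit without this covariate. The 10 lens markers summed to 4389 to 34881 CPM in aged OVX and 3281 to 25803 CPM in aged sham, and to 13951 to 57388 CPM in young OVX and 4984 to 55555 CPM in young sham, and their part in the result was not tested.

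Aged retina was compared with young retina within each surgery. Of the 9 genes 0 were called in sham animals, against 0.0388% of all genes, and 0 in OVX animals, against 0.0711%. Grk1 had the lowest value in sham animals, at 755 ± 32 CPM in aged sham and 824 ± 74.7 CPM in young sham, with all 6 aged libraries below the young median (log2 -0.13 ± 0.07; edgeR, adjusted p = 0.530). In OVX animals Pde6a had the highest, at 915 ± 52.5 CPM in aged OVX and 859 ± 35.4 CPM in young OVX, with 5 of 6 aged libraries above the young median (log2 0.09 ± 0.05; adjusted p = 0.573). Groups overlapped in every one of these comparisons.

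Whether the OVX effect differed between ages was tested as an interaction, the aged effect minus the young effect. It called 0 of 9 genes in the retina, against 0.0452% of all genes. The largest value was that of Grk1, 0.18 ± 0.10, followed by Gnat1 at 0.13 ± 0.10 (edgeR, adjusted p = 0.808 and 0.841). These comparisons share groups: young sham retina enters both the OVX effect in young animals and the age effect in sham animals, and Grk1 was highest in that group.

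Other genes of the pathway were not called in the retina either. The 6 retina comparisons called 0.00646% to 0.0711% of all genes, so counts of 0 in such short lists lie near that share. Of 14 tested genes among 15 further phototransduction genes (the other transducin subunits, the RGS9 complex, guanylyl cyclases and their activators, the exchanger, and chaperones of the cascade), 0 were called higher and 0 lower in any of the 6 comparisons. The same counts, 0 and 0, held for 6 of 7 rod outer segment structure genes, 6 of 7 photoreceptor transcription factors and 9 of 10 cone counterparts of the cascade. The smallest p of these lists in young animals was that of Nr2e3, a nuclear receptor that represses cone genes in rods. It averaged 384 ± 32.7 CPM in young OVX and 321 ± 29.6 CPM in young sham (SD, n = 6 each), a log2 fold change of 0.26 ± 0.07 (edgeR, adjusted p = 0.176). Gnb5, the beta subunit of the RGS9 complex that speeds transducin shut-off, stood at -0.13 ± 0.05 on the log2 scale (edgeR, adjusted p = 0.323). In aged animals Gnat2, the cone transducin subunit, averaged 153 ± 12.0 CPM in OVX and 182 ± 19.6 CPM in sham (log2 -0.25 ± 0.09, adjusted p = 0.717). The median over all 9 cone genes was -0.08 in aged and -0.10 in young animals, with 9 and 7 of 9 below 0 and none called.

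In the posterior eye the spread between libraries was far larger than the differences between groups. Each of the 9 genes varied at least 149-fold between the lowest and the highest of 24 posterior eye libraries. Gnat1 ran from 13.4 to 5122 CPM, a 381-fold range, Pde6g from 12.1 to 1805 CPM, a 149-fold range, and Grk1 from 0.256 to 247 CPM, a 965-fold range. The SD of log2 CPM over libraries was 2.3 to 2.7 for the 9 genes, larger than that of 99.4% to 99.9% of the 16401 genes tested there. In the retina the same SD was 0.065 to 0.13 and the ranges were 1.20-fold to 1.39-fold. In mixed tissue such as this, fewer rods and less rod RNA per cell cannot be told apart.

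The libraries kept almost the same order for every gene. The library of animal 9, young OVX, was the lowest for 9 of 9 genes. Those of animals 9, 20 (aged OVX) and 16 (aged sham) were the lowest 3 for all 9 genes. The highest 3 for all 9 were those of animals 10 (young OVX), 1 (young sham) and 18 (aged sham). Both extremes therefore held OVX and sham libraries and young and aged ones. A library's rank among the 24 differed by a median of 1 place between its lowest and its highest rank over the 9 genes, and by 5 places at most.

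**Figure D2:**
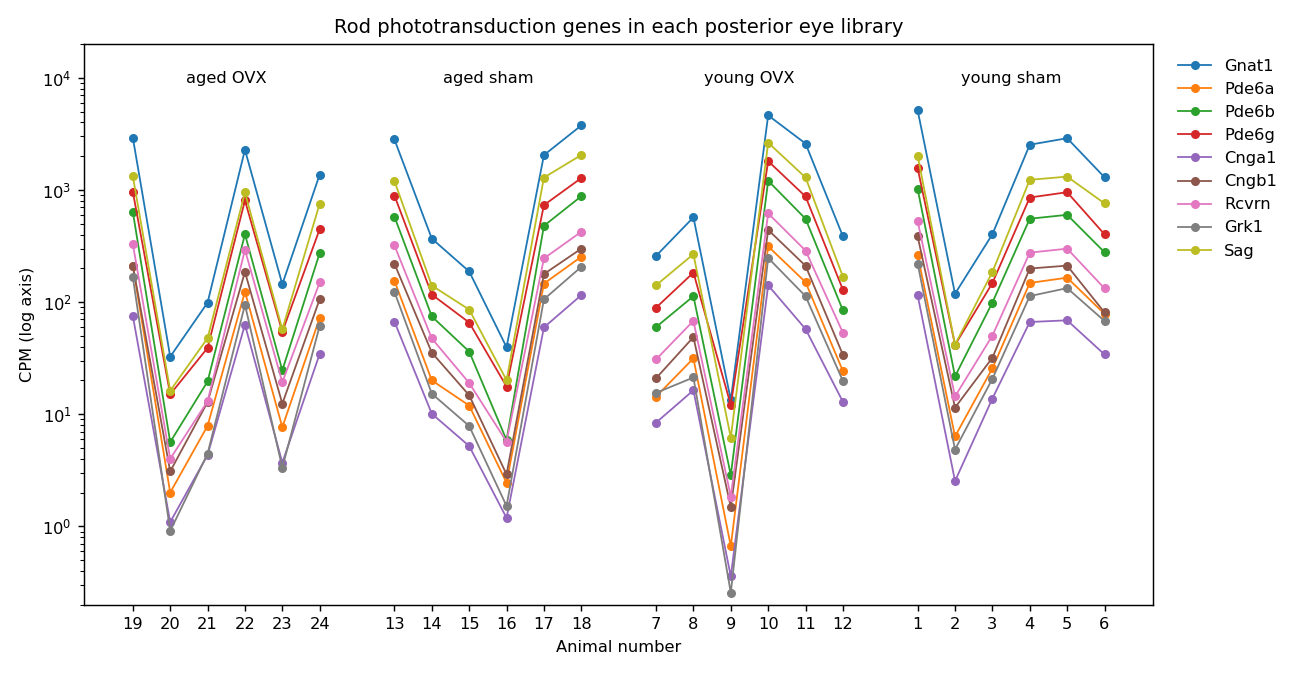
Level of each of the 9 genes in CPM (log axis) in each posterior eye library, ordered by animal number within aged OVX, aged sham, young OVX and young sham; lines join the libraries of a group for 1 gene. The lines run nearly parallel, and Gnat1 spans 13.4 CPM in animal 9 to 5122 CPM in animal 1.

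By group, Gnat1 lay at 13.4, 477 and 4621 CPM (lowest, median and highest of 6) in young OVX posterior eye, against 119, 1912 and 5122 CPM in young sham. In aged animals it lay at 32.6, 758 and 2924 CPM in OVX, against 39.6, 1205 and 3757 CPM in sham. Each group held both libraries with very little Gnat1 and libraries rich in it. Among the PDE6 genes, Pde6b lay at 2.87, 98.6 and 1205 CPM in young OVX, against 21.8, 416 and 1021 CPM in young sham. Pde6g lay at 12.1, 156 and 1805 CPM in young OVX, against 41.5, 629 and 1561 CPM in young sham. Of the channel genes, Cnga1 lay at 0.359, 14.6 and 141 CPM in young OVX, against 2.54, 50.3 and 115 CPM in young sham. The sham medians were the higher ones, while the highest single libraries of these 3 genes were young OVX.

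Sag, the arrestin, lay at 6.20, 218 and 2636 CPM in young OVX posterior eye, against 41.8, 994 and 2005 CPM in young sham. In aged animals Sag lay at 16.2, 406 and 1325 CPM in OVX, against 20.1, 669.8 and 2048 CPM in sham. Grk1, the kinase, lay at 0.256, 20.5 and 247 CPM in young OVX, against 4.85, 90.4 and 221 CPM in young sham. For every gene and both ages the OVX and sham ranges overlapped over most of their length. Mean levels of all 9 genes were lowest in aged OVX and highest in young sham, and these 2 means differed 1.61-fold to 1.89-fold, against SDs of a group near or above its mean.

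No change with ovariectomy was detected in the 9 genes against that spread. In young posterior eye 0 of 9 were called, against 0.0061% of 16401 genes tested (1 gene, with 1023 at an unadjusted p under 0.05). In aged posterior eye 0 of 9 were called, against 0% of all genes (edgeR; 422 genes had an unadjusted p under 0.05, and DESeq2 called 0). For the mean of both ages 0 of 9 were called, against 0% (938 genes had an unadjusted p under 0.05, and DESeq2 called 29). All 9 estimates lay below 0, at -0.60 to -0.39 in aged and -0.55 to -0.28 in young animals, with SEs of 1.10 to 1.20. Gnat1 stood at -0.43 ± 1.17 in aged animals and -0.55 ± 1.17 in young animals (edgeR, adjusted p = 1.00 and 0.999). The 9 genes moved together from library to library, so 9 equal signs are not 9 separate observations.

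The posterior intervals were wide. Over the 9 genes they ran from -3.07 to 2.02 on the log2 scale in aged and from -2.97 to 2.16 in young animals, so changes of several-fold in either direction were not detectable in this tissue. Single libraries turned the sign. The median over the 9 genes in young animals, -0.35, became 0.14 without young sham animal 1 and -1.38 without young OVX animal 10. In aged animals the median of -0.47 became 0.07 without aged sham animal 18 and -0.999 without aged OVX animal 19. The median over all genes tested was 0.0032 in aged and -0.0097 in young animals.

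No change with age was detected in the posterior eye either. Between aged and young sham animals 0 of 9 genes were called, against 0% of all genes (edgeR; 481 genes had an unadjusted p under 0.05, and DESeq2 called 5). Between aged and young OVX animals 0 of 9 were called, against 0% (1663 genes had an unadjusted p under 0.05, and DESeq2 called 65). The interaction called 0 of 9, against 0% (487 genes had an unadjusted p under 0.05, and DESeq2 called 0). The members' median age effects were -0.29 in sham and -0.39 in OVX animals, with SEs of 1.09 to 1.20. Their median interaction of -0.12 turned to 0.59 with limma-voom and to 0.24 with the bipolar covariate described next, with 0 of 9 called in both. Of the 4 lists of related genes, 0 members were called higher or lower in any posterior comparison.

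Markers of other retinal neurons also varied between posterior eye libraries. The mean level of the 9 genes ranged 340-fold over 24 libraries. The photoreceptor transcription factors ranged 212-fold, the bipolar markers 44.3-fold, the other phototransduction genes 41-fold, the rod outer segment genes 33.1-fold, the cone genes 26-fold, amacrine and horizontal markers 16.9-fold and ganglion cell markers 9.39-fold. Müller glia markers ranged 2.75-fold. The lists differed in make-up, so these ranges do not rank cell types by how much they varied. Of the genes tested in both tissues, 1 of 6 rod outer segment genes was called higher in posterior eye than in retina. The same held for 1 of 10 ganglion cell markers and 2 of 10 Müller glia markers. Outside the neural retina the lists were mixed: scleral fibroblasts ranged 1.95-fold, endothelium 1.99-fold, pigment epithelium 2.89-fold, melanocytes 3.36-fold, skeletal muscle 4.39-fold and blood 7.40-fold. Lens markers ranged 38.1-fold and sebaceous and meibomian gland markers 124-fold, with their highest libraries in animals 11 and 6. The library of animal 10 was highest for the 9 genes, the transcription factors, the bipolar and the cone lists, while ganglion cell markers were highest in animal 1. Animal 9 was lowest for the 9 genes, the transcription factors and the cone list, and animal 20 for the bipolar list.

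**Figure D3:**
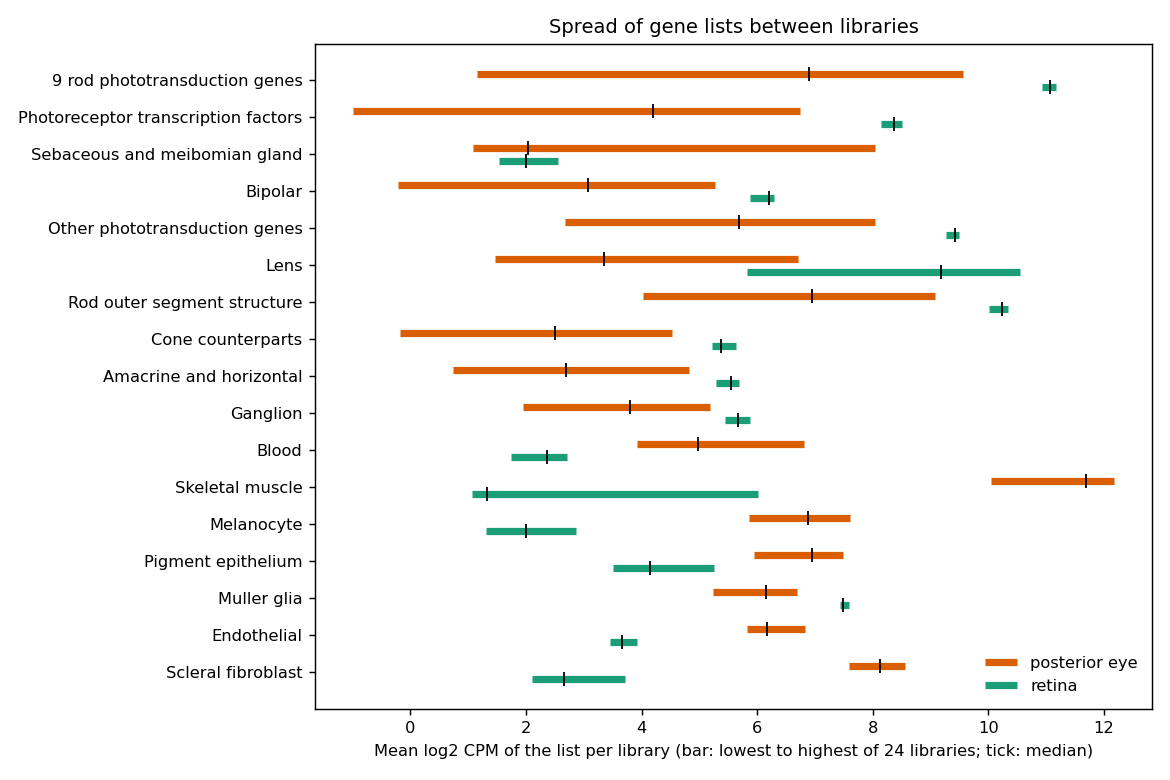
Mean log2 CPM of each gene list per library (horizontal axis), with bars from the lowest to the highest of 24 posterior eye and 24 retina libraries and a tick at the median. The 9 rod genes span 1.15 to 9.56 in posterior eye and 10.93 to 11.17 in retina.

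Bipolar markers were set beside the OVX comparison because rods were not the only neurons whose RNA varied. Of 10 bipolar markers 9 were tested in the posterior eye, none was at 0 in all libraries and 5 were at 0 in at least 1. Their summed level was 106 to 497 CPM in aged OVX and 97.9 to 496 CPM in aged sham, and 169 to 602 CPM in young OVX and 129 to 505 CPM in young sham. Much of that sum was Trpm1, a channel that melanocytes also make, at 173 ± 53.8 CPM in young OVX and 146 ± 44.5 CPM in young sham (SD, n = 6 each). With the mean bipolar level as a covariate the SEs of the 9 genes shrank to 0.13 to 0.23 in aged and 0.13 to 0.22 in young animals. The members' median was then 0.19 in aged animals, with 9 of 9 above 0, and -0.05 in young animals, with 7 of 9 below 0. Gnat1 stood at 0.19 ± 0.22 in aged and -0.19 ± 0.22 in young animals (edgeR, adjusted p = 0.999 and 0.769), and 0 of 9 genes were called at either age. The sign of the aged estimates thus depended on this covariate.

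**Figure D4:**
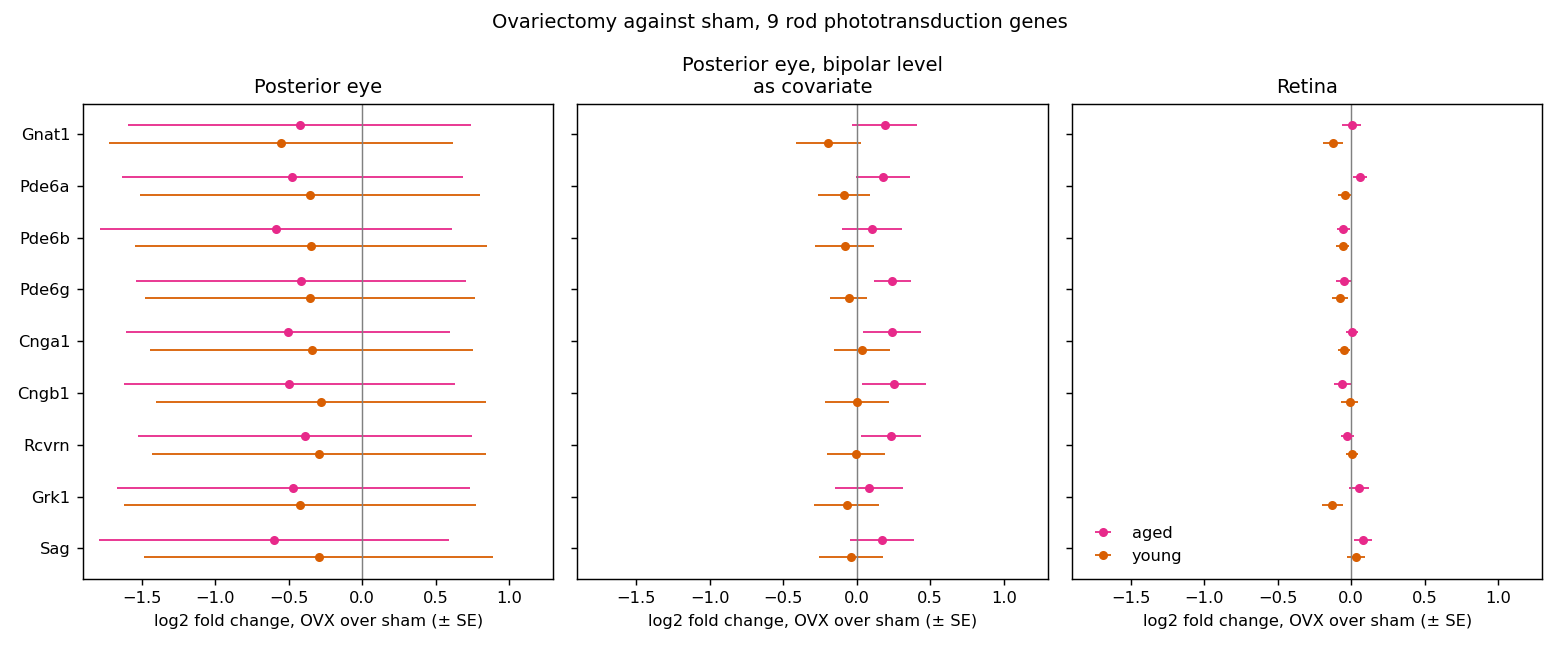
Log2 fold change of OVX over sham with its SE (horizontal axes, same scale) for each of the 9 genes in aged and young animals, in posterior eye, in posterior eye with the bipolar marker level as a covariate, and in retina. SEs are 1.10 to 1.20 in posterior eye, 0.13 to 0.23 with the covariate and 0.04 to 0.07 in retina.

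Levels in the posterior eye and the retina of the same animals were compared on 1 scale in a fit over all 48 libraries. That fit held no term for the animal. All 9 genes were lower in posterior eye, against 45.2% of 17152 genes called lower, with log2 fold changes of -3.31 to -3.15 and SEs of 0.43 to 0.47 (edgeR, adjusted p from 4.23e-09 to 3.7e-08). On that scale Gnat1 averaged 1587 ± 1615 CPM in posterior eye and 14268 ± 1226 CPM in retina (SD, n = 24 each). It was lower in posterior eye in 24 of 24 animals, as was every other member. As a share of the same animal's retina level, Gnat1 in posterior eye ran from 0.109% in animal 9 to 40.3% in animal 10, with a median of 6.27%. Cnga1 had a median share of 7.08% and Grk1 of 5.87%. With the animal as a block the log2 fold changes were -4.52 to -4.16, with SEs of 0.53 to 0.61, and all 9 genes were still called. The median over all genes was 0.047.

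Within the posterior eye the proportions among the 9 genes stayed close to those of the retina although their summed level ran from 39.2 to 12026 CPM. The SD of the log2 ratio of a gene to the mean of the other 8 was 0.12 to 0.35 over posterior eye libraries, against 0.063 to 0.12 over retina libraries. As a share of the 9-gene CPM sum, Gnat1 made up 41.9 ± 2.51% in posterior eye and 42.4 ± 1.42% in retina (SD, n = 24 each). Sag made up 19.9 ± 2.33% in posterior eye and 20.1 ± 1.16% in retina. Cngb1 made up 3.55 ± 0.52% in posterior eye and 3.50 ± 0.25% in retina. Animals were split on these 3 genes, with 10, 11 and 12 of 24 at a higher share in posterior eye.

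Shares of Grk1, Pde6b and Pde6g, singled out here after their values were seen, lay to 1 side in most animals. Grk1 made up 1.84 ± 0.42% in posterior eye and 2.22 ± 0.18% in retina, and was higher in posterior eye in 2 of 24 animals. Pde6b made up 8.63 ± 0.97% in posterior eye and 9.39 ± 0.41% in retina, higher in posterior eye in 4 of 24. Pde6g, the inhibitory subunit, made up 15.5 ± 3.55% in posterior eye and 14.0 ± 0.66% in retina, higher in posterior eye in 17 of 24.

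The highest Pde6g values were those of the libraries with the fewest rod counts. Per 100 Gnat1 counts, Pde6g had a median of 34.2 in posterior eye and 32.6 in retina. In the posterior eye of animal 9, the lowest library, there were 236 Pde6g counts and 262 Gnat1 counts, a value of 90.1 (exact 95% counting interval 75.2 to 108). The next lowest, animals 20 and 16, had 46.2 (39.6 to 53.8) and 44.6 (38.4 to 51.6). The retina libraries ran from 29.6 to 39.6, so these 3 posterior values lay above every retina value. For Grk1 low values were found in these libraries and in others with more counts. Animal 9 had 5 Grk1 counts, or 1.91 per 100 Gnat1 counts (0.615 to 4.51), and animal 20 had 2.79 (1.55 to 4.65), against 4.21 to 6.16 in retina. Animal 23, with 2032 Gnat1 counts, had 2.31 (1.69 to 3.09), and animal 8, with 11944, had 3.73 (3.39 to 4.10), both also below every retina value. Sag ran from 35.2 to 63.1 in posterior eye and from 40.1 to 56.1 in retina and showed no such trend in the low libraries, which were at 46.2, 49.7 and 50.8. Intervals cover counting error only, since the reads carry no molecular identifiers.

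**Figure D5:**
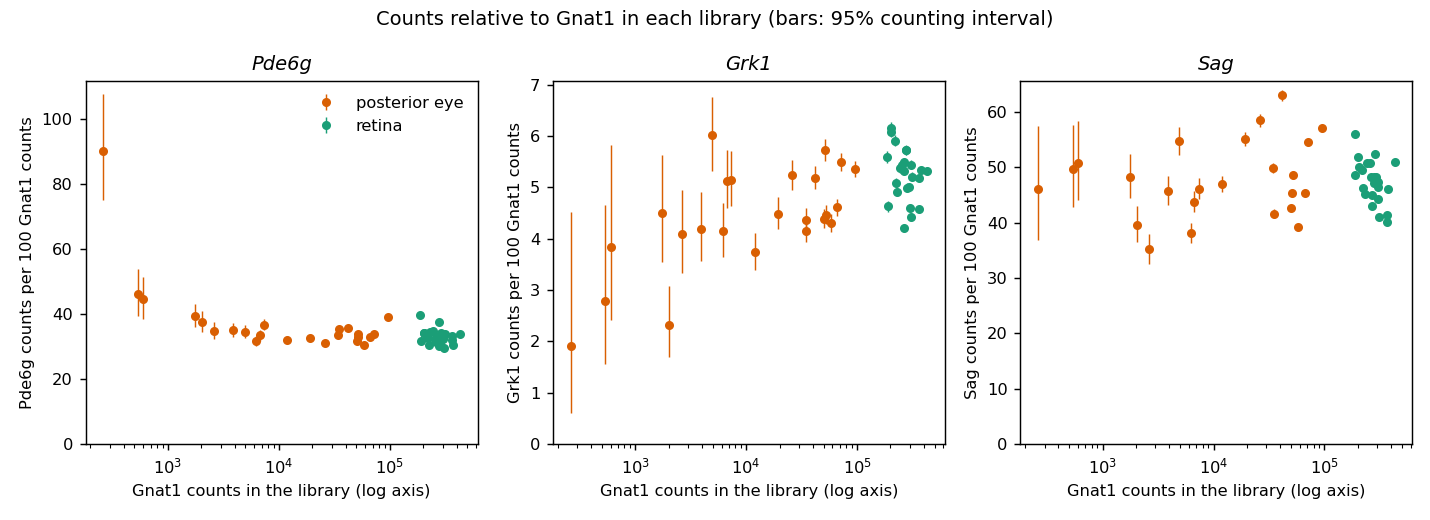
Pde6g, Grk1 and Sag counts per 100 Gnat1 counts (vertical axes) against the library's Gnat1 count (log axis) in posterior eye and retina libraries, with 95% counting intervals. Pde6g reaches 90.1 in the posterior eye library with 262 Gnat1 counts, against 29.6 to 39.6 in retina.

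Genes whose pattern over the 24 posterior eye libraries was most like that of the 9 genes were ranked by the SD of their log2 CPM difference from the members' mean. Among 10588 other genes at a mean of 10 CPM or more, Rtbdn was closest at 0.097, followed by Aipl1, a chaperone needed to assemble PDE6, at 0.11. Guca1b, an activator of guanylyl cyclase, stood at 0.14, Pdc, phosducin, which binds transducin beta and gamma subunits, at 0.15, and Cplx4, a complexin of photoreceptor synapses, at 0.15. Rp1, a microtubule protein of the outer segment, stood at 0.18, Crx at 0.18, Ankrd33 at 0.19 and RGD1560925 at 0.20. The median over all candidates was 2.50, and 56 genes lay under 0.5. All libraries share the same scaling and the candidates were screened on the same data, so this is a description of likeness over 24 libraries and carries no test.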

How the data were processed

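RNA from retina and posterior eye of 24 rats was measured in 48 libraries. Per the labels' protocols, cDNA was made with the SMART-Seq v4 low-input kit and libraries with Nextera XT, which do not mark strand, so reads of a gene and of an overlapping antisense gene cannot be told apart. Raw counts of reads per gene, 1 table a tissue, were deposited by the authors. STAR 2.7.3a, HTSeq, DESeq2 and the rat build Rnor_6.0 are named in the submitters' processing notes, without settings. Groups and animals were taken from the sample titles.

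From the counts, CPM and log2 fold changes with standard errors were computed with edgeR 4.0.16 in R 4.3.3, using TMM scaling, the filterByExpr low-count filter and the quasi-likelihood F test with 4 group means fitted to the 24 libraries of each tissue. The filter left 16401 posterior eye genes and 15481 retina genes. Two-sided p-values received a Benjamini-Hochberg adjustment across every gene tested, with a threshold of 0.05. Standard errors were taken from the size of the log2 fold change over the square root of F, and are approximate. Tissues were compared in a fit of 48 libraries with 8 group means and 17152 genes. Rows whose names had been turned into dates, and Igh-6, which the same search caught, stayed out of that fit. Log2 levels used a prior count of 2. The scripts were tested on simulated data.

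The titles give the retina and posterior eye library of each animal the same number, so the tissues were treated as paired. Library numbers in the sample descriptions broke the pattern of the other animals for the posterior eye of aged OVX animals 22 and 23. Deviations from the group means correlated between the libraries of an animal with a median of 0.0696 (from -0.041 to 0.283) over 14773 genes, and 10 of 24 animals were over 0.1. The pairing was taken from the titles.

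The 9 genes and the lists were chosen with earlier results of these data known. From each list the 3 genes with the smallest p in a comparison could be named, and the 10 genes most alike in pattern, of which 1 is not reported here. Prph2 and Grk7 of the lists had no row under these symbols in either count table and were not analysed. The same held for Dct, Pecam1, Myh1 and Atp2a1 of the marker lists. Alternatives were another scaling, DESeq2 1.42.0, limma-voom (limma 3.58.1), no filter, 2 groups only, a covariate, leaving out each library, the animal as a block and a prior count of 0.5.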

Additional observations from a re-analysis of the deposited data

Results flagged for a closer look

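Of 72 sets of 6 libraries (9 genes, 4 groups, 2 tissues), 3 held a library set apart from the other 5 by a gap that was large against the range of the set. Chance flags about 1 in 20 such sets. All 3 were in retina. Sag in young OVX retina stood at 8069.25 CPM in animal 11, where the other 5 libraries ran from 6760.4 to 7132 CPM. Rcvrn in young sham retina stood at 1486.84 CPM in animal 4, below the other 5 at 1697 to 1833 CPM. In aged sham retina Rcvrn stood at 1833.71 CPM in animal 15, above the other 5 at 1676 to 1709 CPM. Neither gene was called in any of the 12 comparisons within a tissue, with or without these libraries.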

How the results depend on the processing

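Under every alternative run, and without each library in turn, 0 of the 9 genes were called in all 12 comparisons within a tissue. All 9 stayed called as lower in posterior eye, except that DESeq2 gave an adjusted p for 2 of them only (Gnat1 and Grk1), both called. The animal as a replicate block changed no call (log2 -4.52 to -4.16). Signs of near-zero changes turned: in young retina Sag became -0.026 and Rcvrn -0.021 with the pigment epithelium covariate, and Rcvrn -0.0034 without a filter. In aged retina Gnat1 became -0.0034 without a filter, and Cnga1 -0.0089 and Rcvrn 0.0032 with that covariate. Gnat1 in aged posterior eye became 0.19 with the bipolar covariate and 0.071 without aged sham animal 18. Without single libraries, estimates in young retina ran from -0.039 to 0.018 for Cngb1, from -0.0060 to 0.074 for Sag and from -0.032 to 0.026 for Rcvrn, and in aged retina from -0.032 to 0.040 for Gnat1 and from -0.017 to 0.031 for Cnga1. Gnat1 in aged posterior eye ran from -0.95 to 0.071.

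The posterior medians were -1.23 (young), -0.63 (aged) and 0.59 (interaction, with its sign turned) under limma-voom. Counts over all genes depended on the tool. DESeq2 called 12, 0, 29, 5, 65 and 0 genes in posterior eye, against 1, 0, 0, 0, 0 and 0 by edgeR (OVX in young, in aged and over both, age in sham and in OVX, interaction), and in retina 62, 9, 51, 66, 68 and 22 against 3, 1, 8, 6, 11 and 7. With the covariates edgeR called 8 genes for OVX in young posterior eye and 0, 0, 0, 0, 2 and 0 in retina. Only the 2 groups gave 0 in young posterior eye and 17 for age in OVX retina, and no filter gave 0 in young retina. Without single libraries the young retina count ran from 0 to 7 and that of age in OVX retina from 2 to 36. The cause of these changes was not tested. The lowest posterior eye library held 5 Grk1 and 7 Cnga1 counts, so both counting error and the spread between libraries bear on those values.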
